A study of Homo sapiens with 5 samples.

Results

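The aminoacyl-tRNA synthetases measured here were chosen by gene symbol, as 1 capital letter followed by ARS with an optional 1 or 2, or as EPRS1, FARSA, FARSB, PARS2 or SEPSECS. This rule found 38 genes among the 12474 of the deposited single-cell count matrix. Of the 38, 21 were placed among the cytosolic enzymes (no number or a 1, the FARSA and FARSB subunits, EPRS1 and SEPSECS) and 17 among the mitochondrial enzymes (a 2). All 38 had enough counts to be tested. The cells were MDA-MB-468, a triple-negative breast cancer line with high EGFR, marked with lineage barcodes. Afatinib, which blocks the EGFR and ERBB2 kinases irreversibly, was given at 250 nM for 3, 6 or 9 days (D3, D6 and D9), and each treated day was 1 library of 479, 942 and 1139 cells. Untreated cells (D0) were 2 libraries of 478 and 1063 cells, called replicates 1 and 2. All 5 libraries came from the same barcoded line. The study's methods describe freezing of treated cells and thawing of frozen samples before capture. They do not state whether the D0 cells were frozen.

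Each synthetase joins an amino acid to its tRNA and so supplies the ribosome. Most amino acids have a cytosolic enzyme and a separate, nuclear-encoded enzyme that is imported into mitochondria and serves the ribosomes there. GARS1 and KARS1 serve both compartments from 1 gene. Mitochondria have no glutaminyl enzyme of their own and make their glutaminyl-tRNA with an amidotransferase. Many genes of the cytosolic enzymes are known targets of ATF4, the transcription factor whose translation goes up when the initiation factor eIF2 is phosphorylated under amino acid shortage or other stress. ATF4 pairs with C/EBP proteins on a composite DNA element, TGATGNAA.

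The sequences are shown because 13 cytosolic enzymes were grouped here as listed ATF4 targets and the element is the letter pattern behind that name. RefSeq promoter windows (GRCh38.p14, 250 bases before the start of transcription and 50 after) were matched by symbol for 30 of the 38 genes. AARS2, LARS1, SEPSECS, VARS1, VARS2 and YARS1 were among those with no entry. The element was looked for on both strands, and TGATGNAA does not overlap the E-box CACGTG, the other motif searched. Each line gives a gene and 40 bases, 5′ to 3′ on the gene's strand, with the match in capitals.
AARS1, chr16:70289670-70289709, minus strand: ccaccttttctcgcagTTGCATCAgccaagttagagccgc
CARS1, chr11:3057402-3057441, minus strand: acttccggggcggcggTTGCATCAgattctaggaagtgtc
GARS1, chr7:30594829-30594868, plus strand: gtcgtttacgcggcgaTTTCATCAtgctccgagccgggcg
IARS1, chr9:92293687-92293726, minus strand: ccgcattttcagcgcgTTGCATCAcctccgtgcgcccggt
MARS1, chr12:57488048-57488087, plus strand: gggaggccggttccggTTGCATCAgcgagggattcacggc
NARS1, chr18:57621799-57621838, minus strand: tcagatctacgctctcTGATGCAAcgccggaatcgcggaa
TARS1, chr5:33440951-33440990, plus strand: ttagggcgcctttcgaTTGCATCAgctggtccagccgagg
YARS2, chr12:32756071-32756110, minus strand: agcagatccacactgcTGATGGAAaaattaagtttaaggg

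The element was in the window of 7 of the 10 listed cytosolic enzymes that had a window, in 0 of the 6 other cytosolic enzymes and in 1 of the 14 mitochondrial enzymes. Among all genes with a window, 4.46% held it (1217 of 27305). In 6 of the 7 listed genes the first base of the match lay between 33 bases before and 14 bases after the start, and in AARS1 it lay 187 bases before it. The GARS1 match was in the window of its downstream start. The list was drawn from known targets of ATF4, for which this element is part of the evidence, so its presence in them is not independent of the list. The E-box CACGTG, a motif that MYC and other proteins bind, was in the windows of IARS1, CARS2, EARS2 and MARS2, against 8.77% of all genes with a window. A match is only a match of letters, and binding was not measured.

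**Figure D1:**
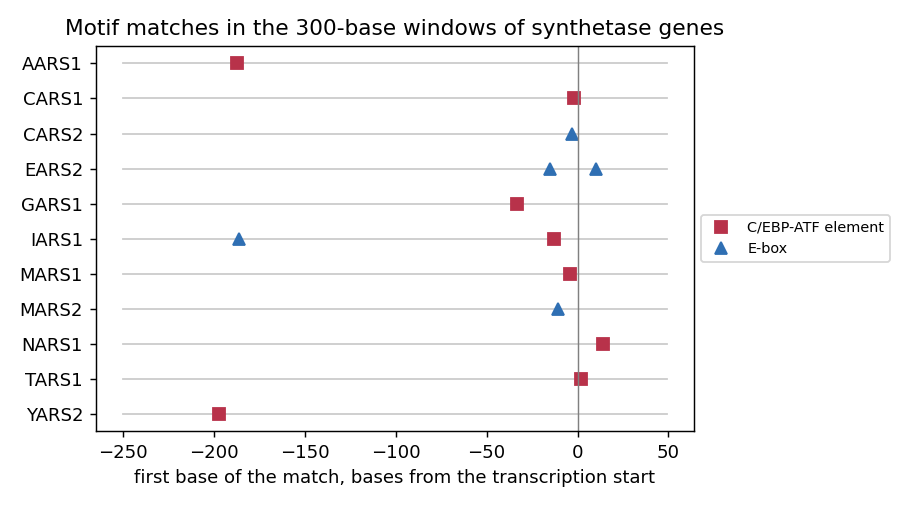
Positions of the matches in the promoter windows of the 11 synthetase genes with any match. The x axis is the distance in bases of the match's first base from the start of transcription, squares are C/EBP-ATF elements and triangles are E-boxes, and grey lines are the windows. Most squares lie close to the RefSeq start, with AARS1 and YARS2 far before it.

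WARS1, a listed target with the highest estimate of all members over the afatinib days, held the element in neither of its windows. Whole windows are given for IARS1, called higher, as the one gene that held both motifs, and for RARS1, called lower, as a cytosolic gene that held neither. They are shown as letters to compare, and no link between a motif and a direction is drawn from them. Capitals mark matches, CACGTG first and the element after it.
IARS1, chr9:92293648-92293947, minus strand: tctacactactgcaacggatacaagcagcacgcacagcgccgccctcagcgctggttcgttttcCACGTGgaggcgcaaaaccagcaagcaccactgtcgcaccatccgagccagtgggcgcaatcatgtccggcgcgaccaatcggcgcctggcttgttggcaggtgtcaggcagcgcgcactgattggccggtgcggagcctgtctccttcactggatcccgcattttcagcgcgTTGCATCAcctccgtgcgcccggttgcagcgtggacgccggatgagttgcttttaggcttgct
RARS1, chr5:168486221-168486520, plus strand: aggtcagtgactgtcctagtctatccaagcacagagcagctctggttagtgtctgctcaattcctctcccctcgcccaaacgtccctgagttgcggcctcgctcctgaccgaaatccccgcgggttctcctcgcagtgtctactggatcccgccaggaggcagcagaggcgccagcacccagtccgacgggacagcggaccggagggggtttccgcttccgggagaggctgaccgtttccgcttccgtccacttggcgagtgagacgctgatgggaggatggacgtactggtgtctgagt

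Counts were summed per library, and levels are given as CPM, counts scaled to a common library size, after TMM scaling, a correction of library size for a few genes that take a large share. Totals ran from 14517579 to 28148379 counts a library. The share of mitochondrially encoded counts was 17.2% on D3, 16.0% on D6 and 8.82% on D9, against 7.25% and 7.80% in untreated replicates 1 and 2, and the share of ribosomal protein genes was 13.2%, 14.2% and 14.0%, against 18.8% and 18.4%. The calls without these genes and in cells under 10% mitochondrially encoded counts, and the directions without D3 and D6, are given after the called genes. D3 and D6 shared 1 cell barcode, and no other libraries shared any. All 7 epithelial and basal markers, among them EPCAM, KRT5 and EGFR, stood at 37.7 CPM or more in every library. ESR1 was at 0.324 CPM or less, PGR and 7 of the 8 markers of immune, stromal and endothelial cells are not in the analysed matrix, and COL1A1, the other marker of such cells, lay between 2.22 and 7.67 CPM. Whether the untreated replicates were separate cultures is not stated in the labels, and the p-values then cover only how these libraries vary, which may be technical. A change in summed counts does not tell apart fewer cells with the transcript and fewer transcripts per cell.

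With the 3 afatinib libraries set against the 2 untreated ones, 5 of the 38 synthetases were called higher and 5 lower. Together this is 26.3% of the members, beside 23.2% of all genes, so the share called was near that of all genes. A gene was called at an adjusted p under 0.05 (edgeR quasi-likelihood test, Benjamini-Hochberg over 12145 genes). The 3 days served as replicates of treatment in this test, although they are different times. No untreated library was from D3, D6 or D9, so afatinib, time in culture and capture cannot be told apart. The study also reports clones that expanded during treatment, and clone composition was not separated here. Of the 21 cytosolic enzymes, 5 were called higher (WARS1, IARS1, MARS1, YARS1 and AARS1) and 2 lower (RARS1 among them), where 13.1% of all genes were called higher and 10.1% lower. Of the 17 mitochondrial enzymes, 3 were called lower (MARS2 and HARS2 among them). None of them was called higher, by edgeR, DESeq2 or limma-voom, and 0 were higher at an unadjusted p under 0.05, where 21.7% of all genes were higher and 16.8% lower. The 5 higher genes were all among the 13 listed ATF4 targets, and both lower cytosolic genes were among the other 8. The lists were chosen with earlier results of these data known, so this split may not be independent of the data.

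WARS1 (ENSG00000140105, chr14:100333790-100376805, GRCh38, GENCODE 44) charges tRNA with tryptophan and is known as a gene that interferon gamma induces. Its level was 69.1, 76.9 and 98.7 CPM on D3, D6 and D9 of afatinib, against 46.2 and 41.2 CPM in untreated cells. The groups did not overlap and D9 was the highest library. The log2 fold change was 0.90 ± 0.19 (SE, edgeR adjusted p = 0.016). IARS1 (ENSG00000196305, chr9:92210207-92293854), the isoleucyl enzyme, stood at 166, 168 and 149 CPM in afatinib libraries and at 99.1 and 103 CPM in untreated ones. All afatinib values were above both untreated values (log2 fold change 0.67 ± 0.15, edgeR adjusted p = 0.019).

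MARS1 (ENSG00000166986, chr12:57475445-57517569), which charges both the initiator and the elongator methionine tRNA of the cytosol, had 110, 112 and 90.5 CPM on D3, D6 and D9, against 73.4 and 64.5 CPM in untreated replicates 1 and 2. The groups did not overlap, and D9 lay nearest to the untreated libraries. YARS1 (ENSG00000134684, chr1:32775237-32818031), the tyrosyl enzyme, had 122, 133 and 142 CPM with afatinib, against 93.5 and 86.2 CPM without. AARS1 (ENSG00000090861, chr16:70251983-70289707), the alanyl enzyme, had 72.7, 77.3 and 66.1 CPM with afatinib, against 52.7 and 46.9 CPM without. For both genes every afatinib library was above every untreated one. The log2 fold changes were 0.59 ± 0.16 for MARS1, 0.56 ± 0.15 for YARS1 and 0.53 ± 0.15 for AARS1 (SE, edgeR adjusted p = 0.037 for each). Without mitochondrially encoded and ribosomal protein genes all 3 missed the threshold (0.52, 0.49 and 0.46, edgeR adjusted p = 0.055, 0.060 and 0.059).

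RARS1 (ENSG00000113643, chr5:168486451-168519301), the arginyl enzyme, is part of the multisynthetase complex. It stood at 85.9, 80.7 and 99.0 CPM on D3, D6 and D9 of afatinib, against 135 and 142 CPM in untreated cells. Every afatinib library was below both untreated libraries, and D9 was the nearest to them. The log2 fold change was -0.64 ± 0.15 (SE, edgeR adjusted p = 0.023).

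MARS2 (ENSG00000247626, chr2:197705369-197708395), the mitochondrial methionyl enzyme, had 3.93, 3.71 and 4.74 CPM on D3, D6 and D9, against 6.89 and 7.85 CPM in untreated cells. These MARS2 levels rest on 59 to 209 counts a library. HARS2 (ENSG00000112855, chr5:140691430-140699305), the mitochondrial histidyl enzyme, had 12.9, 14.0 and 13.3 CPM, against 22.4 and 20.8 CPM. For both genes the afatinib and untreated libraries did not overlap, and the 3 days lay close together. The log2 fold changes were -0.83 ± 0.20 for MARS2 and -0.69 ± 0.13 for HARS2 (SE, edgeR adjusted p = 0.024 and 0.013).

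**Figure D2:**
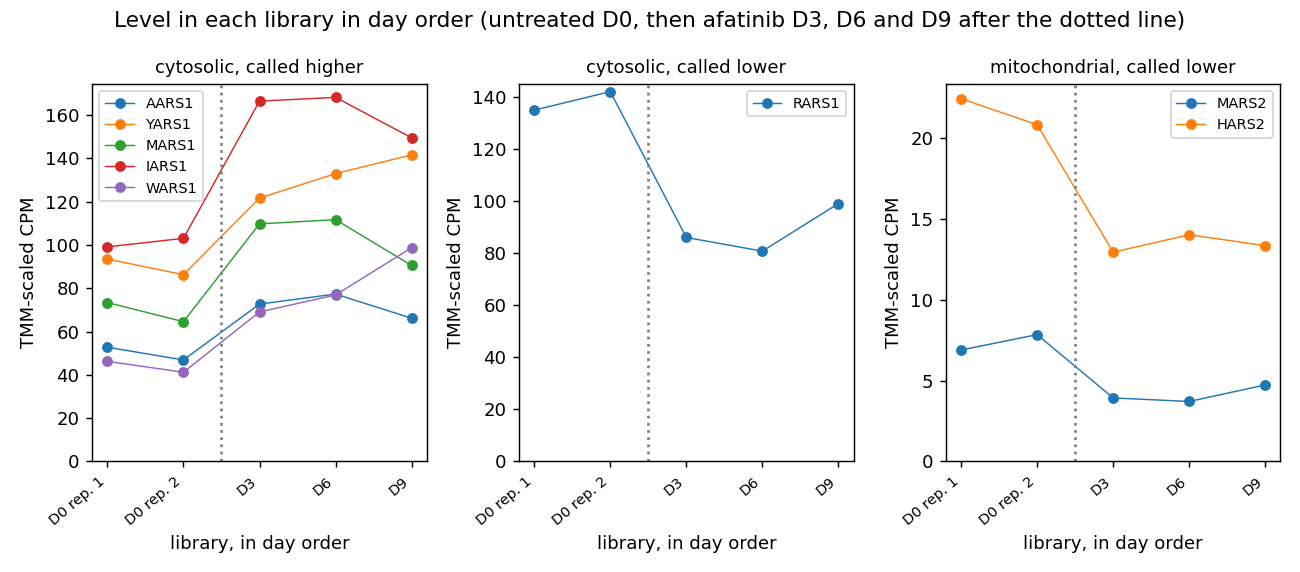
Level of 8 of the 10 called synthetases in each library, in TMM-scaled CPM on axes that start at 0, with libraries in day order and a dotted line after the untreated ones. In each panel the 3 afatinib libraries sit on 1 side of both untreated libraries, as for IARS1 (149 to 168 CPM with afatinib, 99.1 and 103 CPM without) and HARS2 (12.9 to 14.0 CPM with afatinib, 20.8 and 22.4 CPM without).

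The calls depended on which libraries and counts were used, while the directions of the 10 genes were the same in every setting run. Without untreated replicate 1, or without untreated replicate 2, no synthetase was called, where 2.73% and 1.96% of all genes were called, against 23.2% with every library. Without D3, or without D6, 3 synthetases were called, HARS2 and WARS1 among them (16.2% and 12% of all genes). Without D9, 21 synthetases were called, the 10 among them, which is 55.3% of the 38 beside 56.2% of all genes. The larger count of members therefore came with a larger count of all genes. Without D3 and D6 together, the libraries with a high mitochondrially encoded share, D9 was the only afatinib library left. No calls are therefore read from that fit. The 10 genes kept their direction in it, as with WARS1 (log2 fold change 1.12) and RARS1 (-0.54).

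Without mitochondrially encoded and ribosomal protein genes 7 of the 10 calls were kept, all but AARS1, MARS1 and YARS1 (23% of all genes were called). In cells under 10% mitochondrially encoded counts 9 of the 10 were kept (17.7% of all genes). Cells thinned to 5000 counts each kept 3 of the calls, WARS1 and RARS1 among them (12% of all genes).

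The other 28 members were not called, some of them with estimates as large as those of called genes (SEPSECS -0.71, FARSB -0.57 and NARS1 -0.55). In the cytosol EPRS1, which joins glutamyl and prolyl activity in 1 protein, and GARS1, the glycyl enzyme, were higher in every afatinib library than in either untreated one, but missed the threshold (log2 fold change 0.41 ± 0.17 and 0.46 ± 0.16, edgeR adjusted p = 0.12 and 0.079). NARS1, the asparaginyl enzyme, was the one listed ATF4 target with a negative estimate. It had 125, 125 and 90.4 CPM on D3, D6 and D9, against 160 and 172 CPM in untreated cells. All afatinib libraries were below both untreated ones (log2 fold change -0.55 ± 0.19, edgeR adjusted p = 0.069), although its window holds the element. FARSB, a subunit of the phenylalanyl enzyme, missed the threshold too (-0.57 ± 0.18, edgeR adjusted p = 0.054). NARS1 and FARSB were called lower by DESeq2, and GARS1 was called higher by it.

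The 13 listed ATF4 targets had a median log2 fold change of 0.41, with 12 above 0, and the other 8 cytosolic enzymes had a median of -0.47, with 7 below 0. This comparison is a description, since the list was chosen with earlier results of these data known. The median of all genes was 0.05. Of the 13, 9 had every afatinib library above both untreated libraries, as did 31.7% of all genes, and 6 of the other 8 had every afatinib library below both, as did 26% of all genes. Summed over genes, the 13 took 1916, 1965 and 1918 CPM on D3, D6 and D9, against 1569 and 1559 CPM in untreated cells. The other 8 took 500, 510 and 584 CPM, against 699 and 689 CPM. The total of all 38 therefore moved less than its parts, with 2919, 2968 and 2984 CPM in afatinib libraries and 2816 and 2805 CPM in untreated ones.

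The multisynthetase complex holds 8 of the cytosolic enzymes and 3 scaffold proteins, and its enzymes fell on both sides. The 4 that are listed ATF4 targets (EPRS1, IARS1, LARS1 and MARS1) had a median log2 fold change of 0.50, and 2 were called higher. The 4 that are not listed (KARS1, QARS1 and RARS1 among them) had a median of -0.44, and 2 were called lower. Of all genes, 13.1% were called higher and 10.1% lower. The scaffolds AIMP1 and EEF1E1 were called lower. AIMP1 had 100, 115 and 91.1 CPM on D3, D6 and D9, against 169 and 170 CPM in untreated cells (log2 fold change -0.73 ± 0.16, edgeR adjusted p = 0.018). EEF1E1 had 108, 115 and 169 CPM, against 223 and 221 CPM (-0.76 ± 0.22, edgeR adjusted p = 0.041). Afatinib libraries were below both untreated libraries for each, with D9 the nearest for EEF1E1 and the farthest for AIMP1. AIMP2, the third scaffold, had 109, 114 and 187 CPM, against 176 and 173 CPM, so that its groups overlapped (-0.35 ± 0.25, edgeR adjusted p = 0.33).

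By structure, synthetases fall into class I and class II, named for the fold of the active site. Among class I, 4 of 19 were called higher and 2 lower, with a median log2 fold change of 0.15. Among class II, 1 of 18 was called higher and 3 lower, with a median of -0.25. Over all genes 13.1% were called higher and 10.1% lower. The classes also differ in their share of listed ATF4 targets, and the 2 groupings were not separated. EPRS1 was counted in class I alone, although it also holds the prolyl activity, and the mitochondrial prolyl enzyme PARS2 is in class II. SEPSECS, which makes selenocysteinyl-tRNA, belongs to neither class here.

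Cytosolic and mitochondrial enzymes were then described by day. On D3, D6 and D9 the median log2 fold change against D0 was 0.08, 0.10 and 0.10 over the 21 cytosolic enzymes and -0.17, -0.17 and -0.18 over the 17 mitochondrial enzymes. The medians of all genes on these days were 0.04, 0.01 and 0.06. The cytosolic median hid the 2 groups within it, the listed ATF4 targets at 0.32, 0.35 and 0.34 and the others at -0.52, -0.61 and -0.28. On each of the 3 days, 13, 13 and 12 of the 21 cytosolic enzymes and 4, 4 and 6 of the 17 mitochondrial enzymes were above 0. On D3 the sign of both compartment medians depended on the scaling. Without mitochondrially encoded and ribosomal protein genes the cytosolic median on D3 was -0.01. With library totals in place of TMM the mitochondrial median on D3 was 0.01. Over all days the mitochondrial median on library totals stayed below 0 (-0.07), beside a median of all genes that moved to 0.19.

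**Figure D3:**
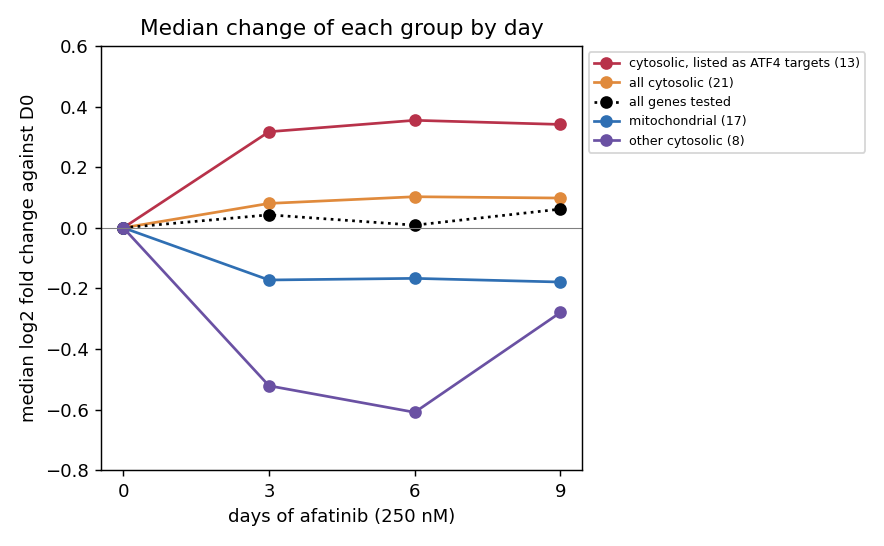
Median log2 fold change against D0 (y axis) on each day of afatinib (x axis), for groups of synthetases and for all genes tested, with D0 set at 0 and the number of genes in the legend. The 13 listed ATF4 targets stay between 0.32 and 0.35, the mitochondrial enzymes between -0.18 and -0.17, and the other 8 cytosolic enzymes reach -0.61 on D6 and stand at -0.28 on D9.

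Single days were tested with the spread of the 2 D0 libraries alone (1 residual degree of freedom), so a call there also needed a log2 fold change of at least 1. On D3 no synthetase was called by edgeR or DESeq2, where 6.28% of all genes were called higher and 4.2% lower, and 10 of the 38 were higher and 12 lower at an unadjusted p under 0.05, as were 32.8% and 29.1% of all genes. On D6 only SEPSECS was called (log2 fold change -1.42 ± 0.32, edgeR adjusted p = 2.92e-05), where 6.73% of all genes were called higher and 5.77% lower, and on D9 only WARS1 (1.18 ± 0.12, edgeR adjusted p = 3.11e-21), where 5.08% were called higher and 7.27% lower. SEPSECS (ENSG00000109618, chr4:25120014-25160550) had 1.74, 1.13 and 2.61 CPM on D3, D6 and D9, against 3.52 and 2.63 CPM in untreated cells. That is 27, 18 and 64 counts, against 76 and 70, and D9 lay next to the lower untreated library. The D6 call was lost with DESeq2 (adjusted p = 0.17) and in thinned cells (edgeR adjusted p = 0.13).

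**Figure D4:**
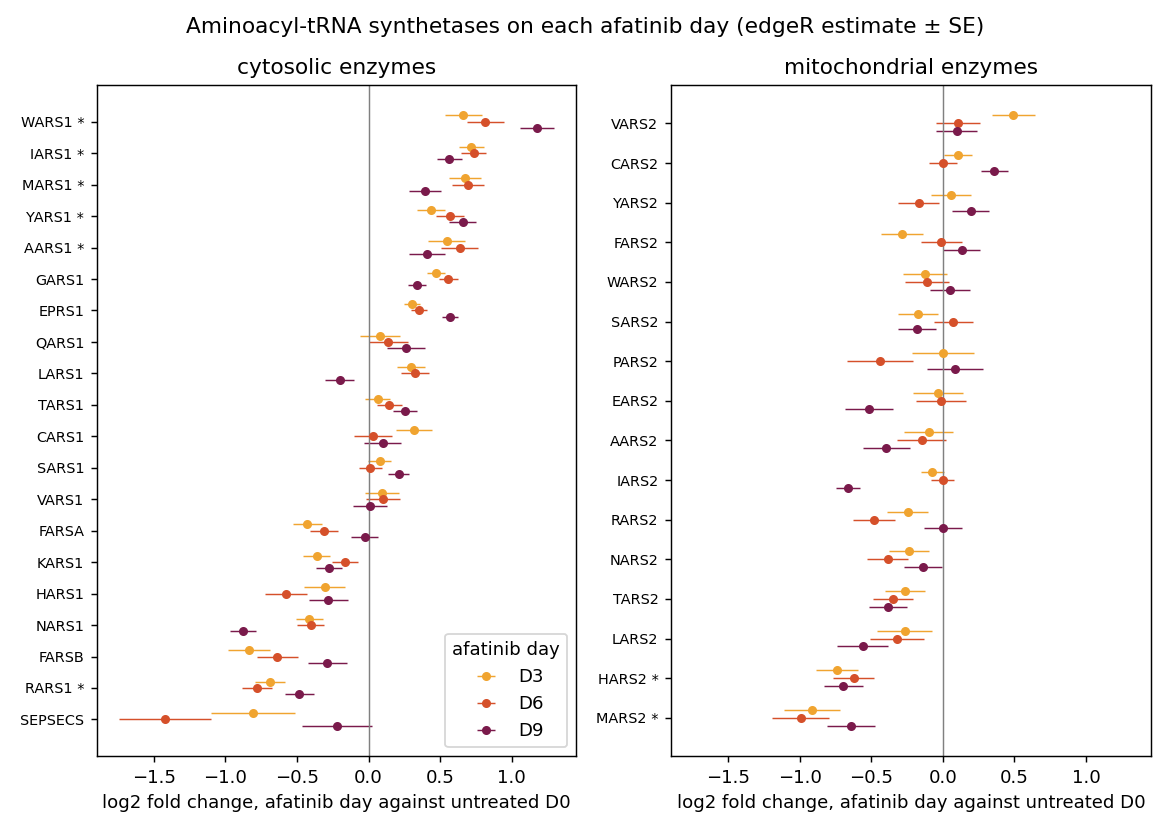
Log2 fold change of 36 of the 38 synthetases on each afatinib day against untreated D0 (x axis, edgeR estimate ± SE), cytosolic enzymes on the left and mitochondrial enzymes on the right, ordered by the estimate over all days, with an asterisk at genes called over all days. The cytosolic enzymes spread to both sides of 0, from WARS1 (1.18 on D9) to SEPSECS (-1.42 on D6), and the mitochondrial enzymes reach from VARS2 (0.49 on D3) to MARS2 (-0.99 on D6).

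Between days, D6 and D3 differed little. No member was called between them by edgeR or DESeq2 (0.452% of all genes were called higher on D6 and 0.772% lower), and 0 were higher and 1 lower at an unadjusted p under 0.05, as were 9.32% and 9.6% of all genes. Between D9 and D6 only SEPSECS was called (log2 fold change 1.20 ± 0.36 for D9 over D6, edgeR adjusted p = 0.0031), where 0.969% of all genes were called higher and 3.25% lower. Each day is 1 library, with 64 SEPSECS counts on D9 and 18 on D6. The call was lost in cells under 10% mitochondrially encoded counts, in thinned cells and with equal numbers of cells (edgeR adjusted p = 0.16, 0.63 and 0.14), and DESeq2 gave no adjusted p. A further 7 members were higher and 6 lower at an adjusted p under 0.05 with smaller changes, where 22.5% of all genes were higher and 20.9% lower at that threshold. The lower ones included IARS2, the mitochondrial isoleucyl enzyme, at 111 CPM on D9 and 176 CPM on D6 (log2 fold change -0.66 ± 0.10), and LARS1, the leucyl enzyme, at 93.5 CPM on D9 and 135 CPM on D6 (-0.53 ± 0.11). The higher ones included RARS1 (0.29 ± 0.12).

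For each amino acid with an enzyme in both compartments the log2 ratio of the cytosolic to the mitochondrial level was followed, which gave 18 pairs, with EPRS1 set against EARS2 and PARS2 and each phenylalanyl subunit against FARS2. In 10 pairs every afatinib library had a higher ratio than both untreated libraries, in 4 every one was lower, and in 4 the groups overlapped. Pairs share genes (EPRS1 and FARS2 are each in 2), and among single genes 31.7% had every afatinib library above both untreated ones and 26% below, so the counts of pairs are given as a description only. The methionyl pair moved most, with log2 ratios of 4.80, 4.91 and 4.26 on D3, D6 and D9, against 3.41 and 3.04 in untreated cells, since MARS1 was higher and MARS2 lower. The tryptophanyl pair had 2.46, 2.60 and 2.80, against 1.70 and 1.64. WARS2 itself had 12.6, 12.7 and 14.2 CPM, against 14.2 and 13.2 CPM, and did not separate the groups. The isoleucyl pair had -0.01, -0.07 and 0.43, against -0.84 and -0.76. IARS2 had 167, 176 and 111 CPM, against 178 and 174 CPM, so the ratio on D9 combined a higher IARS1 with a lower IARS2.

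In the alanyl and tyrosyl pairs the mitochondrial gene did not separate the groups over all days. AARS2 had 6.76, 6.54 and 5.51 CPM on D3, D6 and D9, against 6.66 and 7.77 CPM in untreated cells, and YARS2, whose window holds the element, had 18.6, 15.8 and 20.4 CPM, against 17.7 and 17.9 CPM. On D9 the alanyl genes lay about equally far from D0, in opposite directions (log2 fold change 0.41 ± 0.13 for AARS1 and -0.39 ± 0.16 for AARS2, both short of the fold a call by day needs). In the histidyl pair, whose genes lie head to head on chromosome 5 with windows that share 184 bases, HARS1 had 35.0, 28.9 and 35.6 CPM, against 42.4 and 44.0 CPM. HARS1 was below both untreated libraries on every day but missed the threshold (log2 fold change -0.38 ± 0.14, edgeR adjusted p = 0.092), and the ratio overlapped between groups. The arginyl ratio was lower on every day (1.18, 1.32 and 1.14, against 1.62 and 1.62), since RARS2 (37.9, 32.3 and 45.0 CPM, against 43.9 and 46.1 CPM) moved less than RARS1.

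At the level of single cells each cell was thinned at random to 5000 UMIs (unique molecular identifiers, which count captured transcripts), so that depth was equal, and no cell was lost. A cell held on average 9.93, 9.79 and 9.80 UMIs of the 13 listed ATF4 targets on D3, D6 and D9, against 7.45 and 7.40 in untreated cells. It held 2.43, 2.43 and 2.93 UMIs of the other 8 cytosolic enzymes, against 3.20 and 3.16. The mitochondrial enzymes gave 2.59, 2.44 and 2.46 UMIs, against 2.52 and 2.52, which did not separate the groups. On this scale, which is not TMM-scaled and gives each cell the same weight, the cytosolic split was seen and a lower mitochondrial sum was not. The cells spread widely, with 10th and 90th percentiles of 5 and 15 UMIs on D3 for the listed targets, against 3 and 12 in untreated replicate 1.

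**Figure D5:**
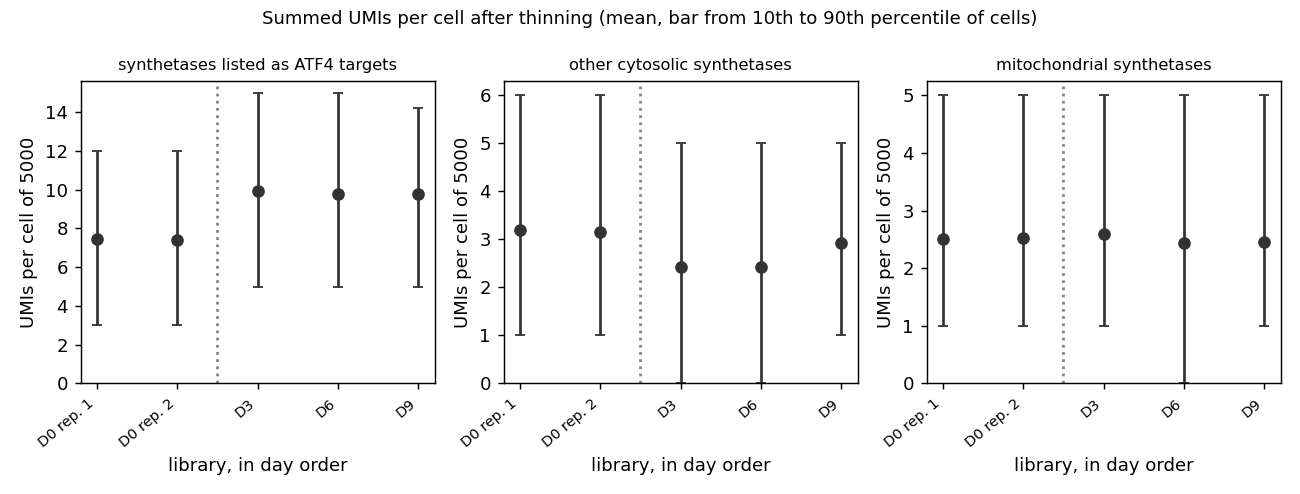
Summed UMIs per cell (y axis) of 3 groups of synthetases in each library, in day order, after each cell was thinned to 5000 UMIs; points are means and bars run from the 10th to the 90th percentile of cells. The listed ATF4 targets average 9.79 to 9.93 with afatinib and 7.40 and 7.45 without, and the mitochondrial enzymes average 2.44 to 2.59 with afatinib and 2.52 in both untreated libraries.

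Shares of cells with at least 1 UMI were compared as well. After thinning, IARS1 was seen in 57.6%, 55.0% and 53.6% of cells on D3, D6 and D9 (exact binomial 95% intervals 53.1 to 62.1, 51.7 to 58.2 and 50.7 to 56.6), against 36.2% and 36.5% in untreated cells (31.9 to 40.7 and 33.6 to 39.5). RARS1 was seen in 29.4%, 31.3% and 37.0%, against 49.2% and 47.0%. HARS1 overlapped between groups on this measure, with 16.9%, 12.3% and 16.5% of cells, against 16.5% and 17.03%. Without thinning the IARS1 shares were 91.0%, 84.7% and 88.5%, against 92.7% and 81.9%, and the RARS1 shares were 74.5%, 62.1% and 79.2%, against 95.8% and 86.6%. The median depth was 22715, 13862 and 20216 UMIs a cell on D3, D6 and D9, against 45659 and 25252 in untreated cells. The intervals cover counting error only, and no cell type that lacks these enzymes was present to measure background.

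Within each library the summed listed targets went with the summed other ATF4 targets across cells, at Pearson's r of 0.23, 0.19 and 0.25 on D3, D6 and D9 and 0.50 and 0.48 in untreated replicates 1 and 2. The other cytosolic enzymes gave 0.08, 0.07 and 0.08, against 0.00 and 0.01, and the mitochondrial enzymes 0.00 in each afatinib library, against -0.05 and -0.04. All cytosolic enzymes summed gave 0.23, 0.20 and 0.26 with the other ATF4 targets, against 0.44 and 0.42. With ribosomal protein genes they gave 0.22, 0.20 and 0.19, against 0.06 and 0.04. With mitochondrially encoded transcripts they gave -0.33, -0.24 and -0.18, against -0.16 and -0.21. Correlations of this order were thus not particular to ATF4 targets in afatinib libraries. These are descriptions over 478 to 1139 cells that share a library, and the 2 sums of a cell share its fixed total.

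Of the other genes of the pathway, the ATF4 targets outside the synthetases were called higher in 26 of 33 cases and lower in 0. Their median log2 fold change was 1.01, and 13.1% of all genes were called higher and 10.1% lower. ATF4 itself had 451, 492 and 609 CPM on D3, D6 and D9, against 315 and 321 CPM in untreated cells (0.70 ± 0.20, edgeR adjusted p = 0.040). XPOT, the exporter of tRNA from the nucleus, had 79.3, 89.9 and 77.6 CPM, against 36.0 and 31.8 CPM (1.28 ± 0.15, edgeR adjusted p = 0.0028). ATF4 and XPOT were higher in every afatinib library than in either untreated one. The 4 called targets with the largest changes and a mean of at least 20 CPM were ALDH1L2 (1.75), a mitochondrial folate enzyme, SESN2 (1.61), a leucine sensor upstream of mTORC1, STC2 (1.51), a secreted glycoprotein, and SLC7A5 (1.30), a carrier of large neutral amino acids. ASNS, asparagine synthetase, was called higher at a low level (4.51, 4.47 and 4.41 CPM, against 1.94 and 1.69 CPM; log2 fold change 1.30 ± 0.23, edgeR adjusted p = 0.0094).

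Most other genes that make or use tRNA were not called, where 13.1% of all genes were called higher and 10.1% lower. Among 28 genes of tRNA transcription and processing 1 was called higher (XPOT) and 3 lower, with a median log2 fold change of -0.14. POLR3C (-0.48), a subunit of RNA polymerase III, was among the lower ones. Among 9 genes of the eIF2 pathway, ATF4 included, 2 were called higher and EIF2S1, the alpha subunit of eIF2, was called lower (-0.92 ± 0.17, edgeR adjusted p = 0.010). Among 12 mitochondrial translation factors 1 was called higher and 2 lower, MTIF3 (-0.72), an initiation factor, and MTRF1L (-0.54), a release factor. Among the 4 genes of the glutaminyl amidotransferase and of initiator formylation, MTFMT, which formylates the initiator methionyl-tRNA of mitochondria, was called lower (-0.77 ± 0.14, edgeR adjusted p = 0.011). Of 7 cytosolic elongation factor genes 1 was called higher over all days, and of 5 synthetase-like and editing genes LRRC47 (-0.49) was called lower. The elongation factors differed by day, with a median log2 fold change of -0.22, -0.06 and 0.47 on D3, D6 and D9. All 7 were above 0 on D9. Of 9 genes of MYC and interferon gamma signalling 0 were called by edgeR over all days. At an unadjusted p under 0.05 over all days, 1 was higher and 2 were lower. The genes of this list differed on D9, which is 1 library. There the highest log2 fold change was 1.71 and the median was -0.13, with 3 genes above 0 and 6 below. MYC had 134, 195 and 142 CPM on D3, D6 and D9, against 102 and 110 CPM (0.57 ± 0.20 over all days, edgeR adjusted p = 0.076).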

How the data were processed

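Single-cell RNA-seq libraries (10x 3′ chemistry) of MDA-MB-468 cells were analysed, 3 with afatinib and 2 untreated, grouped by GEO's labels. Per the submitters' processing notes and the study's methods, Cell Ranger 6.1.2 aligned and counted the reads (GRCh38, GENCODE 32). The authors removed cells under 5000 UMIs, cells with outlying mitochondrial shares and doublets, used ComBat-seq against a batch effect between both D0 captures and removed low genes. The deposited values are estimated counts, that is, adjusted UMI counts that were already whole numbers. The design had assumed plain counts, and the test was kept. By its construction the adjustment brings both untreated libraries closer to each other, and p-values may therefore be too small. Afatinib libraries carry adjusted values too: among synthetases with at least 10 cells at 1 and 10 at 3, the value 2 was missing for 17 of 30, 17 of 28 and 17 of 32 on D3, D6 and D9, against 20 of 34 and 7 of 32 in untreated replicates 1 and 2.

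Counts were summed per library, filtered with filterByExpr, TMM-scaled and fitted with edgeR 4.0.16 (quasi-likelihood, Benjamini-Hochberg, R 4.3.3) on all genes. The standard error is the size of the log2 fold change divided by the square root of F. The study tested cells as replicates, which was not followed. The fit was tested on simulated data. Alternatives were DESeq2 1.42.0, limma-voom 3.58.1, no filter, other gene sets and scalings, other cell filters and leaving out libraries. The members and lists were chosen with earlier results of these data known. Values in every library are given for most called members, their partners in the other compartment, and NARS1. NARS1, EPRS1, GARS1, FARSB and LARS1 were singled out after their values were seen. For EPRS1, GARS1 and FARSB only estimates are given, and for LARS1 the levels on D6 and D9. Of each other list, the text names up to 4 called genes averaging 20 CPM or more, with ATF4, ASNS, XPOT, AIMP1, AIMP2, EEF1E1 and MYC. MTFMT is named outside this rule, since it averaged under 20 CPM. Single values of 2 synthetases and 1 gene of another list are not reported here, and they remain in the counts and medians.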

Additional observations from a re-analysis of the deposited data

Results flagged for a closer look

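SEPSECS had a log2 fold change for D9 over D6 of 1.20 ± 0.36 (SE, edgeR adjusted p = 0.0031), in a contrast within the fit with day as a factor. Each day is 1 library, so this compares those libraries, and the level rests on 64 counts on D9 and 18 counts on D6. The call was lost in cells under 10% mitochondrially encoded counts, in cells thinned to 5000 UMIs and with equal numbers of cells (log2 fold change 1.12, 0.58 and 1.06, edgeR adjusted p = 0.16, 0.63 and 0.14).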

How the results depend on the processing

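The 10 calls of afatinib against untreated kept their direction in every alternative run. All 10 stayed past the threshold with DESeq2, limma-voom, no filter and equal numbers of cells. Leaving out 1 library at a time gave 0 to 8 cytosolic enzymes called higher, 0 to 8 called lower and 0 to 5 mitochondrial enzymes called lower, with medians of 0.086 to 0.13 (cytosolic), -0.25 to -0.14 (mitochondrial) and 0.33 to 0.45 (listed ATF4 targets). Without D9 the YARS2 log2 fold change was -0.049.

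With DESeq2, 4 cytosolic enzymes were called lower, 0 synthetases on D6 and 0 for D9 over D6 (where SEPSECS had no adjusted p), and the cytosolic, mitochondrial and listed medians were 0.12, -0.24 and 0.38. With limma-voom the mitochondrial median was -0.23. Without mitochondrially encoded and ribosomal protein genes, 2 cytosolic enzymes were called higher (AARS1, MARS1 and YARS1 missed the threshold) and 4 lower and 3 synthetases lower on D6, with medians of 0.084, -0.28 and 0.35, a cytosolic median of -0.0058 on D3 and a YARS2 log2 fold change of -0.030. In cells under 10% mitochondrial counts 0 were called for D9 over D6, the medians were 0.23, -0.14 and 0.46 and WARS2 stood at 0.061. In cells thinned to 5000 UMIs, where fewer counts remain, 1 cytosolic enzyme was called higher and 0 mitochondrial enzymes lower. There 2 synthetases were called lower on D3, 2 on D6 and 2 on D9, 0 were called higher and 1 lower for D9 over D6, and the medians were 0.11, -0.22 and 0.31. With equal numbers of cells 2 were called lower on D6 and 0 higher for D9 over D6, and the mitochondrial median was -0.16.

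Added after seeing the data, the fit without D3 and D6 called 8 cytosolic enzymes higher and 7 lower and 1 mitochondrial enzyme higher and 8 lower, with medians of 0.038, -0.24 and 0.28. The fit on library totals without TMM called 1 cytosolic enzyme lower, with medians of 0.29, -0.069 and 0.55, a mitochondrial median of 0.0080 on D3 and WARS2 at 0.081. Except where the alternative removes counts or libraries, the cause was not tested. No paired analysis was possible because each treated day has 1 library and shares 1 replicate number at most with D0. Without an untreated library the day fit has no residual degrees of freedom, so no calls by day were made. MARS2, SEPSECS, PARS2, EARS2, LARS2 and AARS2 had under 10 CPM in every library, which limits what could be called.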
